A study of Mus musculus with 28 samples.

Results

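The 3 compounds studied here, together called 3C, are L-ascorbic acid, the GSK3 inhibitor CHIR99021 and TGF-b RI kinase inhibitor II (also labelled iALK5). Their effect was measured while UNC0638, an inhibitor of the histone H3 lysine 9 methyltransferases Ehmt1 and Ehmt2, was present throughout. The comparison takes 6 of the 28 samples of the series, 3 RNA-seq libraries of cells given doxycycline, UNC0638 and 3C against 3 of cells given doxycycline and UNC0638. It covers every gene in the deposited table, 54109 in all, of which 16138 reached the expression level needed for a test. Another 6 libraries, 3 with doxycycline alone and 3 with doxycycline and 3C, served to ask whether the effect of 3C was the same without UNC0638.

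All 12 libraries came from mouse embryonic fibroblasts (MEFs) in the course of reprogramming to pluripotency. The cells were heterozygous for Rosa26-rtTA and for an Oct4-GFP reporter. They carried either a heterozygous doxycycline-inducible OKSM allele or a homozygous inducible OKS allele, and which library had which is not given in the sources used here. Every group, the controls included, received doxycycline at 1 µg/ml, which switches the reprogramming factors on. Both groups of the main comparison received UNC0638 at 1 µM, and one of them also received 3C, with 50 µg/ml of ascorbic acid, 3 µM of CHIR99021 and 250 nM of the TGF-b receptor inhibitor. The cells grew on irradiated feeder cells, so RNA of feeders and of reprogramming cells cannot be told apart. In such bulk samples, fewer cells of a type and less RNA per cell cannot be told apart either. The sources used here do not give the time of RNA harvest for these libraries, nor whether the replicates were separate cultures or embryos, so p-values measure the spread between these libraries only.

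Each of the 3 compounds has a well-studied target. CHIR99021 blocks GSK3, the kinase that marks beta-catenin for destruction, and the stabilised beta-catenin joins TCF/LEF factors on target genes such as Axin2. The TGF-b receptor inhibitor blocks the kinase of Tgfbr1 (ALK5), which phosphorylates Smad2 and Smad3 and drives collagen, matrix and contractile genes in fibroblasts. Ascorbic acid is a cofactor of iron-dependent dioxygenases, among them the prolyl hydroxylases of collagen, the TET enzymes and the JmjC histone demethylases. In fibroblast reprogramming, loss of the mesenchymal programme and gain of epithelial genes come early, and the full pluripotency network comes late.

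Values are normalised read counts, that is, reads divided by 1 size factor per library. A change is a log2 difference of value + 1 with its standard error (SE), and a gene was called where limma's adjusted p (Benjamini-Hochberg over 16138 genes) was under 0.05. The 6 libraries held 12649516 to 18073259 reads in genes, the UNC0638 libraries 14413086 to 18073259 and the 3C libraries 12649516 to 13791985. With fibroblast genes such as Thy1 (2538–2931 with UNC0638 alone, 3393–3809 with 3C added) and Col1a2 (95498–107790.0 and 38622–39997) high in all 6, the libraries bore the mark of fibroblasts. Late pluripotency genes were at or near the limit of detection. Dppa3, Dppa5a and Esrrb had 0 reads in all 6, and Nanog, the core pluripotency factor, had 22 reads over the 3 UNC0638 libraries and 11 over the 3 with 3C.

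Promoters from 2 gene groups are shown, for genes chosen because they carried a known short motif. Most tested genes of each group moved in the same direction, but not every gene of a group carried the motif. The first are Cyp1a1 and Ahrr, targets of the aryl hydrocarbon receptor (AHR), with the receptor's core GCGTG, read on either strand, in capitals. The 250 bases upstream of the RefSeq start site (GRCm38.p6, which is mm10) are printed 5′ to 3′ on the gene's strand, for Cyp1a1 at chr9:57697363-57697612 (+) and for Ahrr at chr13:74292332-74292581 (-).
Cyp1a1: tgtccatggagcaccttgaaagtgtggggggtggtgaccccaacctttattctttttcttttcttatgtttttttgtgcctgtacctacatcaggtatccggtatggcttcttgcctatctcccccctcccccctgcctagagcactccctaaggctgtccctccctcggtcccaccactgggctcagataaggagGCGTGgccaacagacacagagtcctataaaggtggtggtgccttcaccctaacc
Ahrr: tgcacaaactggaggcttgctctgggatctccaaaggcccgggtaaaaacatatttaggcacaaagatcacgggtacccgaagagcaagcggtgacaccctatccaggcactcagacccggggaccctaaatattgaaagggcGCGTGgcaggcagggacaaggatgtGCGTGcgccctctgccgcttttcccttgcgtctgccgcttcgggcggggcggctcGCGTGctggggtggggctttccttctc
The next are Myl9, Cnn2 and Vcl, genes of the contractile apparatus, with the CArG box bound by serum response factor (SRF) in capitals. These windows lie at chr2:156775214-156775463 (+), chr10:79988350-79988599 (+) and chr14:20929148-20929397 (+).
Myl9: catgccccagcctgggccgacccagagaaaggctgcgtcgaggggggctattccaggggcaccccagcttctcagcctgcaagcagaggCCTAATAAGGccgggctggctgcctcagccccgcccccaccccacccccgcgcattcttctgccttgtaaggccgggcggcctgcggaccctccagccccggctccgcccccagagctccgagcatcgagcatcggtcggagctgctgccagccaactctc
Cnn2: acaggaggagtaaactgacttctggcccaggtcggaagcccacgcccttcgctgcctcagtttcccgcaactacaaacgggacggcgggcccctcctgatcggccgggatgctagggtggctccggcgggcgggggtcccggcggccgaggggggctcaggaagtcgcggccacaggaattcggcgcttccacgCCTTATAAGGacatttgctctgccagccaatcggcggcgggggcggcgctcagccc
Vcl: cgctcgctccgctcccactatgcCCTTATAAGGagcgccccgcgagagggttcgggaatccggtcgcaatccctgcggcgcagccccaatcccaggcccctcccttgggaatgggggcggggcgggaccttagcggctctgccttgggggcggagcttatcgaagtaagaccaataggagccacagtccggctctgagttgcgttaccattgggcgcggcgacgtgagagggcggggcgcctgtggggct
The AHR core was present in 28.157% of all 32851 promoter windows of this length and in those of 5 of the 7 tested AHR list genes that had a window. The CArG box was in 1.467% of all windows and in those of 6 of the 27 contractile and SRF genes with a window. A match is a run of letters and not a shown binding site.

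Adding 3C in the presence of UNC0638 changed a large share of the tested genes. Of 16138 genes, 7656 (47.4%) were called, with 3861 (23.9%) higher and 3795 (23.5%) lower. Most changes were small. At least 2-fold differences were found in 703 genes that rose and 957 that fell, and at least 4-fold differences in 227 and 278. The median change over all tested genes was 0.01, on values that were scaled by 1 factor per library. Groups without overlap were common. Counting each symbol once, they were found in 8783 tested genes, 7341 of them called. Non-overlap is therefore not particular to the genes for which it is given below.

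Among the 15 largest increases were genes of Wnt feedback, of AHR signalling and of epithelia. Cyp1a1, a cytochrome P450 that is the classical AHR target, had 0 reads in each UNC0638 library and 90.9, 60.6 and 173 with 3C. With the floor set at 3 reads over the group, this was at least 118-fold higher. Ahrr, the repressor of AHR, rose from 29.04, 25.2 and 35.7 to 1451, 1194 and 1318, a log2 change of 5.42 ± 0.18 (adjusted p = 1.6e-13). In both genes the lowest 3C library lay above the highest library without it. Axin2 (chr11:108917828-108950783), a scaffold of the beta-catenin destruction complex and itself a beta-catenin target, rose from 8.54, 4.38 and 10.7 to 466, 442 and 379 (log2 change 5.67 ± 0.27, adjusted p = 1.6e-11). Notum, a secreted Wnt deacylase, had 3.42, 1.10 and 0 against 181, 75.2 and 112, and Rnf43, a ubiquitin ligase that clears Wnt receptors, 2.56, 0 and 1.79 against 94.4, 42.4 and 56.4. Each of those rested on 5 reads in the UNC0638 group, so the size of the 2 changes is loosely set.

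Other large increases covered enzymes and barrier genes. Xdh, the xanthine oxidoreductase of purine breakdown, rose from 17.9, 19.7 and 21.4 to 813, 638 and 688 (5.10 ± 0.14 log2, adjusted p = 8.4e-15). Slpi, a secreted protease inhibitor of epithelia, rose from 4.46–9.86 to 299–348, and Aqp5, a water channel of glands, from 6.25–7.69 to 377–515. Ppl, the desmosomal protein periplakin, rose by 5.08 ± 0.24 log2. Eef1a2, a translation elongation factor, rose by 5.78 ± 0.29, the potassium channel gene Kcnj2 by 5.13 ± 0.18, and Akr1c18, a hydroxysteroid dehydrogenase, by 6.25 ± 0.39. Pex5l (4.92 ± 0.42) and Crocc2 (4.74 ± 0.37) also rose. Akr1c18, Pex5l and Slpi had 13, 16 and 20 reads over the UNC0638 group, so the size of their changes is loosely set. Prlhr, a neuropeptide receptor, had 0 reads in the 3 UNC0638 libraries and 69.9, 67.9 and 80.7 with 3C, at least 78-fold higher by the same floor. Every gene in this set had 3C libraries that were all above the UNC0638 libraries, which the rule for naming them required.

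The 15 largest decreases were led by Megf10, an engulfment receptor, which fell from 869, 819.8 and 792 to 6.99, 10.9 and 6.63 (log2 change -6.52 ± 0.18, adjusted p = 8.4e-15). C1qtnf3, a secreted adipokine and cartilage protein, fell from 2877, 2641 and 2744 to 48.9, 61.8 and 47.5 (-5.69 ± 0.099, adjusted p = 3.7e-17). Replicates were tightly grouped in both groups for C1qtnf3 and in the UNC0638 group for Megf10. Ccn2 (chr10:24595442-24598683), the connective tissue growth factor and a hallmark of TGF-b and YAP activity, fell from 4989, 5422 and 5631 to 112, 159 and 170.2 (-5.20 ± 0.14, adjusted p = 8.4e-15). Tnfrsf11b, the decoy receptor osteoprotegerin, fell from 1711–2225 to 49.7–65.2. Lgr6, an R-spondin receptor, fell from 236–320.0 to 2.42–12.8. Hey2, a Notch effector, fell from 235–280.2 to 5.82–6.63. In these 4 genes the highest 3C library was far below the lowest UNC0638 library. Non-overlap itself was required by the rule for naming the 15 decreases. Ngfr, the low-affinity neurotrophin receptor (log2 change -4.89 ± 0.21), and Fabp7, a fatty acid binding protein (-5.49 ± 0.38), fell as far. Ptprb (-4.91 ± 0.25), Kank4 (-4.75 ± 0.30), Crym (-4.54 ± 0.26), Trh (-5.47 ± 0.29), Krt84 (-5.30 ± 0.40), Miat (-4.44 ± 0.35) and Gm15866 (-4.65 ± 0.40) completed the set. Krt84, Miat and Gm15866 had 6, 4 and 9 reads over the 3C group, and Fabp7 had 12. Hey2 had 16, Lgr6 and Ptprb 18 each, and Megf10 21. The size of these changes is loosely set.

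**Figure D1:**
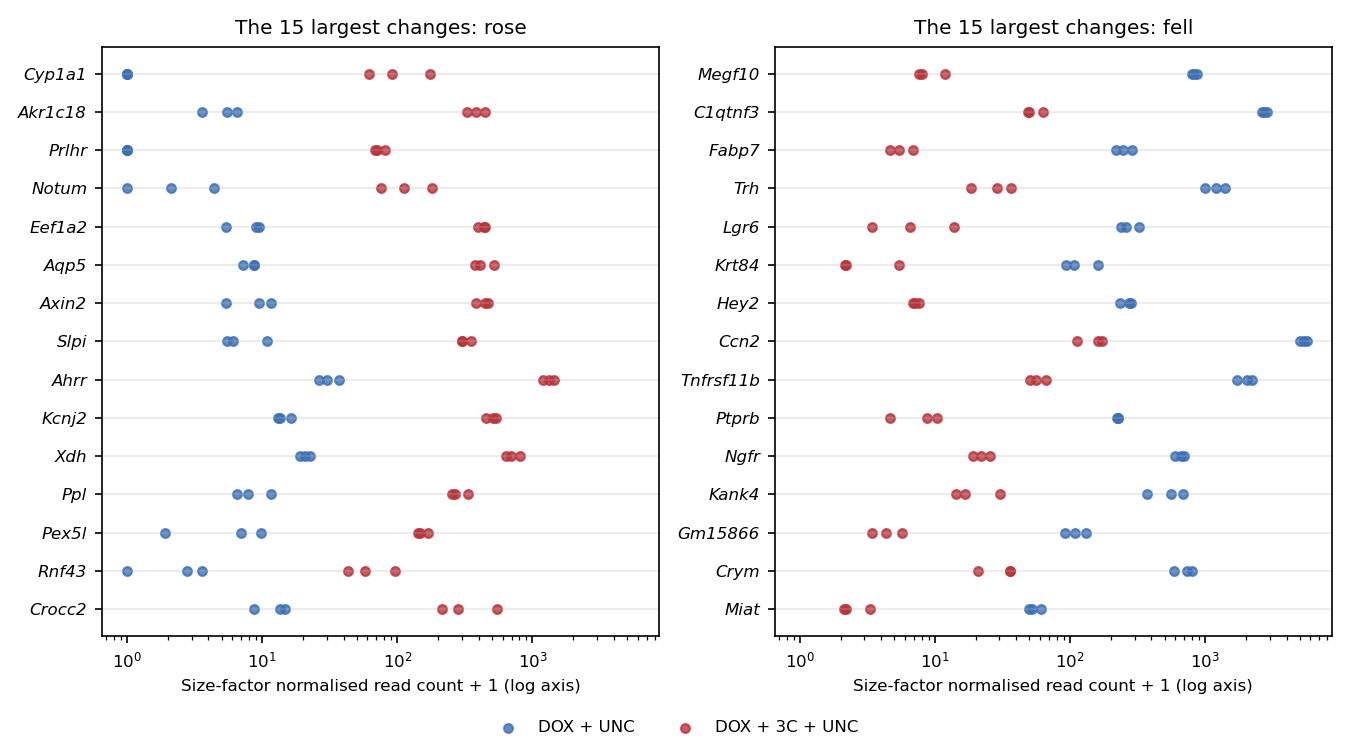
Normalised read count + 1 (log axis) of the 15 genes with the largest increase and the 15 with the largest decrease, 1 point per library, blue for DOX + UNC and red for DOX + 3C + UNC. The rule for choosing the genes required that the 2 groups not overlap. Cyp1a1 and Prlhr sit at 0 reads in all 3 DOX + UNC libraries.

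Wnt signalling genes split by their role. Counts for this list and for those below compare with 23.9% of all tested genes called higher and 23.5% called lower. Of 28 known beta-catenin targets, 19 were tested, and 9 rose and 4 fell (median change 0.29, against 0.01 for all genes). The rising targets were mostly feedback inhibitors. Besides Axin2, Notum and Rnf43, Nkd2 rose from 104–139 to 305–397 (1.58 ± 0.17, adjusted p = 3.8e-07) and Nkd1 from 14.3–20.8 to 34.3–50.1 (1.21 ± 0.26, adjusted p = 8.3e-04), both being naked cuticle inhibitors of Dishevelled. Tcf7, a TCF factor, rose from 17.5–21.4 to 89.5–122 (2.39 ± 0.20). Tnfrsf19 (2.11), the Wnt inhibitor gene Apcdd1 (0.55) and cyclin D2 gene Ccnd2 (0.29) were the other 3. The falling targets were Lgr6, Prox1 (-1.79), Tcf7l1 (-1.16) and Tcf7l2 (-0.48), the last 2 being TCF factors that can repress. Lef1, a TCF factor often induced by Wnt, had 37.6–45.5 and 19.4–34.9, and its change of -0.57 ± 0.26 did not pass (adjusted p = 0.085), though it did in the fit with the replicate number as a block (adjusted p = 0.041) and without 3C replicate 1 (0.040). Sp5, a direct beta-catenin target, was too low for the test, with 0 reads in the UNC0638 group and 9 in the 3C group.

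Called ligands and receptors of the pathway were found in both directions, as over all tested genes. Among 31 tested ligands, receptors and secreted antagonists, 10 rose and 9 fell (median -0.03), against backgrounds of 23.9% and 23.5%. Wnt2, a canonical ligand, fell from 140.3–157 to 24.5–29.8 (-2.44 ± 0.22, adjusted p = 6.1e-08), and Wnt4 rose from 17.1–21.9 to 64.2–74.03 (1.76 ± 0.29, adjusted p = 6.3e-05). The Frizzled receptor gene Fzd4 fell (-1.72), and Fzd6 (1.15) and Fzd7 (0.49) rose. Sfrp1, a secreted antagonist, rose from 3585–5009 to 8170.1–9703 (1.15 ± 0.13). Of 29 intracellular components 7 rose and 13 fell (median -0.07), and the changes were modest. Ctnnb1, which encodes beta-catenin itself, fell slightly, from 18067–18638 to 14765–15087 (-0.31 ± 0.047, adjusted p = 3.5e-05). Ctnnbip1, an inhibitor of beta-catenin binding to TCF (-0.84), the scaffold genes Amer1 (-0.81) and Apc (-0.39) and the corepressor gene Tle1 (-0.78) fell, and Tle3 rose (0.36).

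Genes known to respond to TGF-b mostly fell. Of 35 tested response genes, 21 fell and 9 rose, with a median change of -0.82, against backgrounds of 23.5% and 23.9%. Ccn2 and Lox, the lysyl oxidase that cross-links collagen, fell most. Lox went from 13659, 15762 and 16045 to 716, 687 and 976 (-4.27 ± 0.12, adjusted p = 8.4e-15). Inhibitors of the pathway that TGF-b itself induces also fell. Skil, a Smad corepressor, went from 2706, 3329.8 and 2942 to 481, 496 and 499 (-2.60 ± 0.066, adjusted p = 4.5e-15), and Smad7, the inhibitory Smad, from 916, 989.7 and 899 to 326, 379 and 377 (-1.37 ± 0.085, adjusted p = 4.3e-10). In these genes the groups were far apart, with no library in between. The feedback inhibitor gene Pmepa1 (-2.46 ± 0.11), the transglutaminase gene Tgm2 (-2.76 ± 0.12), the metalloproteinase inhibitor gene Timp3 (-2.94 ± 0.07) and the follistatin-like gene Fstl1 (-1.42 ± 0.054) fell as well.

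Some TGF-b response genes did not follow. Tgfbi, a secreted adhesion protein named for its induction by TGF-b, rose from 2555, 2511 and 2281 to 3721, 3397 and 3382 (0.52 ± 0.08, adjusted p = 3.5e-05). The EMT transcription factor genes Snai1 and Snai2 rose by 1.20 ± 0.14 and 0.82 ± 0.14.

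Receptors and ligands of the TGF-b and activin family were rearranged. Of 28 tested components 8 rose and 13 fell (median -0.12). Inhbb, a subunit of activin B, rose from 38.4, 51.5 and 76.8 to 1319.8, 1314 and 1185 (4.55 ± 0.21, adjusted p = 7.6e-12). Gdf15, a stress-induced ligand, rose from 27.3–50.9 to 449.7–487 (3.74 ± 0.19), and Tgfbr3, the coreceptor betaglycan, from 217–294 to 1559–1852 (2.73 ± 0.16). Tgfbr1, the kinase that the inhibitor targets, fell from 3069–3424 to 1797–2134 (-0.71 ± 0.061, adjusted p = 3.1e-08), and Tgfbr2, its partner receptor, rose from 1660.5–1732 to 2338–2641 (0.55 ± 0.065, adjusted p = 1.5e-06). The BMP type I receptor gene Acvr1 (-1.73) and the integrin gene Itgav (-1.30), whose product activates latent TGF-b, fell. In the BMP branch 9 of 29 tested genes rose and 9 fell, against backgrounds of 23.9% and 23.5%. Its direct targets Id1 (1872–2225 to 3515–4107; 0.83 ± 0.07, adjusted p = 2.4e-08), Id3 (0.86 ± 0.067) and Id2 (0.62 ± 0.073), inhibitors of differentiation, all rose. Atoh8 rose by 1.43 ± 0.13, and Bmp2, a ligand, and the antagonists Bmper and Nbl1 fell (-3.23, -2.66 and -1.72).

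Contractile genes fell nearly as a block. Of 30 tested smooth muscle and SRF target genes 25 fell and 2 rose (median -0.82). Acta2, smooth muscle actin and the marker of myofibroblasts (chr19:34240336-34255585), fell from 43816, 53023 and 50241 to 9835, 13188 and 11500.4 (-2.10 ± 0.097, adjusted p = 9.3e-12). Tagln, an actin-binding protein of smooth muscle, fell from 2186, 2629 and 2511 to 196, 308 and 229.8 (-3.34 ± 0.14, adjusted p = 1.6e-12). No 3C library came near a library without 3C in either gene. Among the genes with a CArG box in the windows printed above, Myl9, a myosin light chain (-2.25 ± 0.12), Cnn2, a calponin (-1.39 ± 0.081), and Vcl, the adhesion protein vinculin (-0.60 ± 0.063), fell. Cald1, which encodes caldesmon, fell too (-1.51 ± 0.07). The 2 that rose were Des (1.52 ± 0.31) and Flnc (0.75 ± 0.059), an intermediate filament and a filamin.

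Collagen and matrix genes fell in the main. Of 30 tested collagen chains 16 fell and 5 rose (median -0.61), and of 42 matrix glycoprotein and cross-linking genes 22 fell and 9 rose (median -0.61). Col1a2, a chain of type I collagen, fell from 95498, 107790.0 and 102679 to 39410.1, 38622 and 39997 (-1.37 ± 0.072, adjusted p = 4.2e-11). Its partner Col1a1 fell less, from 27551, 24262 and 29103 to 18146, 18517 and 19882 (-0.51 ± 0.083, adjusted p = 5.7e-05). Both falls exceeded the spread between replicates. The fibril-regulating chains of type V, Col5a1 (-1.40 ± 0.061) and Col5a2 (-1.15 ± 0.05), the type VI chain gene Col6a3 (-1.34 ± 0.07) and the type XI chain gene Col11a1 (-3.31 ± 0.19) also fell. Col12a1 (0.84 ± 0.092) and Col24a1 (2.13 ± 0.31) rose, and Col3a1 did not pass (-0.16 ± 0.076, adjusted p = 0.098), except without 3C replicate 1 (adjusted p = 0.016). Among the glycoproteins, tenascin C (Tnc) fell from 21529–25254 to 1731–2375 (-3.56 ± 0.1, adjusted p = 1.1e-14), and Postn (-2.55 ± 0.16), Fbln2 (-2.41 ± 0.096), Fbln5 (-1.78 ± 0.084) and Thbs1 (-1.55 ± 0.078) fell as well. Of 25 matrix proteases and inhibitors 9 rose and 10 fell, against backgrounds of 23.9% and 23.5%. Mmp11 (-2.49) and Adamts12 (-1.51) were down, and Mmp19 (2.14) and Adamts4 (1.21) were up.

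**Figure D2:**
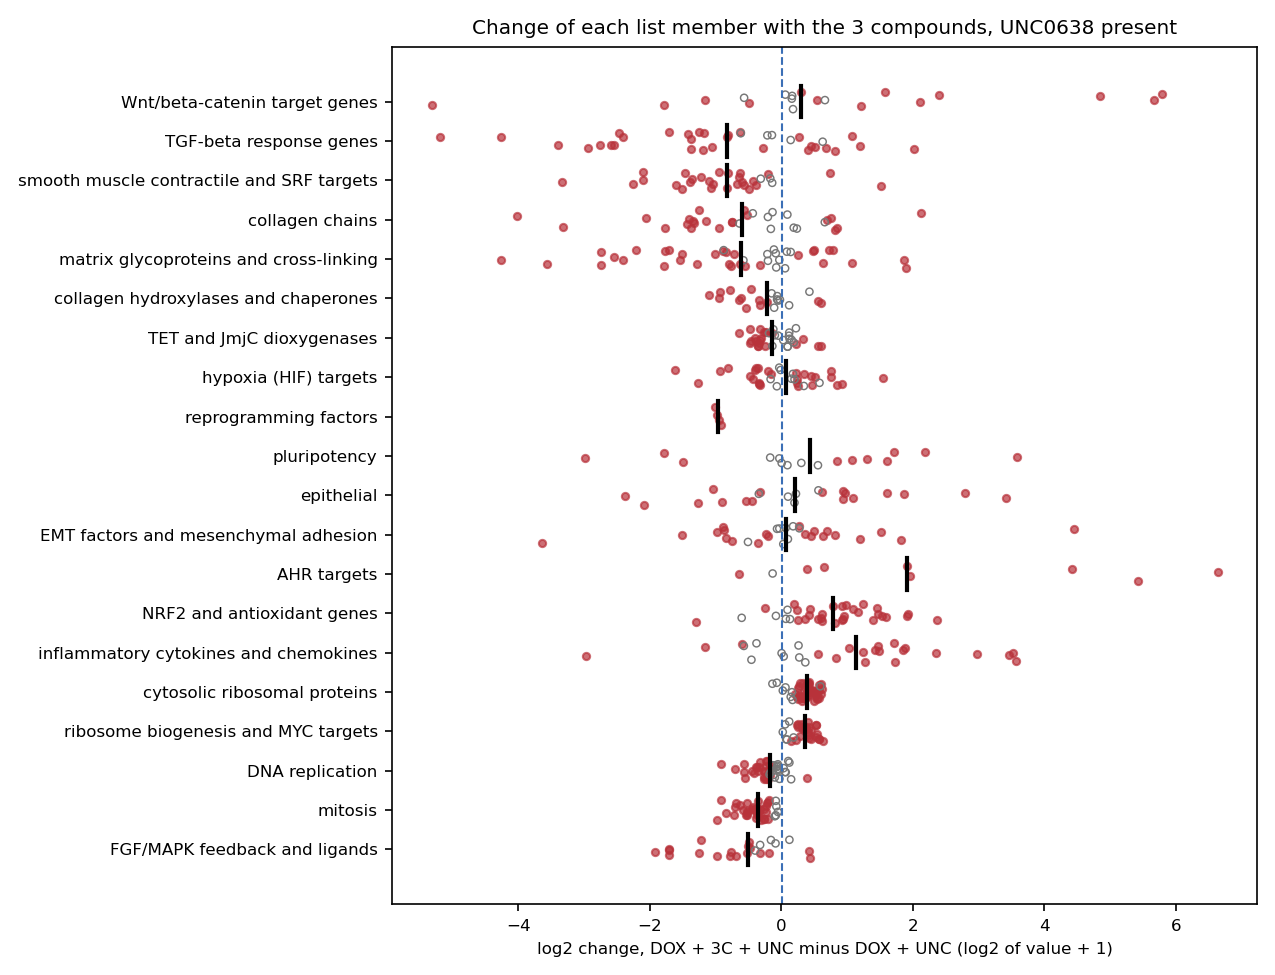
Change of every tested member of 20 gene lists when 3C was added in the presence of UNC0638, on the horizontal axis as a log2 difference, 1 point per gene, filled where called and open where not. Black bars are list medians and the dashed line is the median of all tested genes (0.01), and the contractile, TGF-b response and reprogramming factor lists lie mostly to its left.

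Among transcripts of the ascorbate-dependent enzymes and their partners, most of those called were lower with 3C. Of 21 collagen hydroxylases and chaperones 11 fell and 2 rose (median -0.22). P4ha1, a catalytic subunit of collagen prolyl 4-hydroxylase, fell from 2361–2783 to 1300.0–1426 (-0.93 ± 0.064, adjusted p = 1.6e-09), and Plod2, a lysyl hydroxylase, from 2389–2693 to 1279.5–1396 (-0.95 ± 0.066, adjusted p = 2.0e-09). P3h4 (-0.77) and Crtap (-0.61), which work with prolyl 3-hydroxylase, fell, and Plod3, another lysyl hydroxylase, rose (0.57). Among 34 tested TET and JmjC dioxygenase genes 16 fell and 4 rose, and none of the calls reached 2-fold. The H3K9 demethylase gene Kdm3a fell from 1284–1351 to 852–1020.5 (-0.48 ± 0.062, adjusted p = 5.2e-06), with its relatives Kdm3b (-0.48) and Jmjd1c (-0.65). Tet1 did not pass (117–161 and 110.5–128; -0.19 ± 0.16, adjusted p = 0.37). Fto, an RNA demethylase, and Phf8, a demethylase of H3K9me2, rose by 0.56 and 0.61.

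The targets of UNC0638 stayed close to their level. Ehmt2 had 4211, 4267 and 4152 with UNC0638 alone and 4033, 4142 and 4291 with 3C, a change of -0.02 ± 0.052 (adjusted p = 0.79), and Ehmt1 had 1917–1952 and 1647–1846 (-0.14 ± 0.052, adjusted p = 0.035). That small fall of Ehmt1 no longer passed when only the 6 libraries were fitted (adjusted p = 0.078), without the filter on low values (0.072) or when any of UNC0638 replicates 1, 2 and 3 or 3C replicate 3 was left out (0.064 to 0.18). UNC0638 inhibits the enzymes and not their transcripts, so these levels say nothing of its action. Of 24 tested DNA and H3K9 methylation genes 11 fell and 2 rose. The rising ones were Atf7ip (0.85), a partner of Setdb1, and Suv39h1 (0.33), and the fallers included Cbx5 (-0.57), which encodes HP1alpha, Uhrf1 (-0.41) and Dnmt1 (-0.29). Hypoxia targets, whose factor HIF is degraded through other dioxygenases, were mixed. Of 36 tested, 13 were up and 14 down, against backgrounds of 23.9% and 23.5%. Pfkp, a phosphofructokinase, rose (0.85 ± 0.055), and the glucose transporter gene Slc2a3 fell (-1.61 ± 0.12).

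The 4 reprogramming factors were all lower with 3C, by close to the same amount. Pou5f1 (chr17:35506032-35510777), which encodes Oct4, fell from 3421, 3507 and 3286 to 1594, 1839 and 1739 (-0.98 ± 0.055, adjusted p = 1.0e-10). Sox2 fell from 2919, 2946 and 2696 to 1301, 1629 and 1531 (-0.94 ± 0.069, adjusted p = 3.6e-09). The falls of Klf4 (5878–6162 to 2990.3–3384; -0.91 ± 0.051) and Myc (5816–6259 to 2852–3229; -1.01 ± 0.055) were of like size. In none of the 4 did a 3C library reach the level of a library without 3C. Such separation, in either direction, was found in 8783 of the tested genes. Transcripts of the inducible cassette and of the cells' own genes are not separated in these counts.

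Pluripotency genes gave a split picture. Of 34 on the list, 16 were expressed enough for a test, and 7 rose and 3 fell. Tfcp2l1, a factor of naive pluripotency, rose from 48.7, 29.6 and 37.5 to 460.1, 522 and 414 (3.58 ± 0.25, adjusted p = 1.6e-09). The growth factor gene Gdf3 rose from 9.39–12.1 to 42.4–61.7 (2.19 ± 0.27, adjusted p = 2.4e-06), and Klf5 (0.85), Nodal (1.71), Lefty1 (1.31) and Epcam (1.60) rose as well. Epcam, at 0.854–2.19 and 3.31–9.70, did not pass without UNC0638 replicate 3 (adjusted p = 0.051) or 3C replicate 2 (0.087). L1td1, an RNA-binding protein of pluripotent cells, fell from 2278, 2147 and 2036 to 707, 878 and 720.4 (-1.49 ± 0.09, adjusted p = 2.9e-10). The Oct4 and Sox2 target Fgf4 fell from 318–401 to 83.9–127 (-1.78 ± 0.15, adjusted p = 3.3e-08), as did Fut9 (-2.99 ± 0.33), the enzyme that makes the SSEA-1 epitope.

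Epithelial and mesenchymal genes did not move as opposites. Cdh1, which encodes E-cadherin, rose from 72.6, 66.9 and 51.8 to 234, 192 and 277 (1.86 ± 0.21, adjusted p = 1.1e-06), with no overlap between the groups. Grhl3, an epithelial transcription factor, rose from 3.57–6.58 to 53.04–72.7 (3.41 ± 0.31), and Cldn4 by 2.80 ± 0.60. In all, 9 of 22 tested epithelial genes rose and 8 fell, against backgrounds of 23.9% and 23.5%. Those that fell included the junction gene Jup (2501–2628 to 932–1147; -1.26 ± 0.068), Krt19 (-1.04 ± 0.12) and Cgn (-2.38 ± 0.45). On the mesenchymal side 11 of 29 genes rose and 10 fell, against the same backgrounds. Twist1, an EMT factor, rose from 759, 681 and 699.7 to 2604, 2381 and 2571 (1.82 ± 0.083, adjusted p = 7.4e-12). Fap, the fibroblast activation protein, rose from 1.71–5.36 to 70.3–99.02 (4.46 ± 0.34), and the mesenchymal homeobox gene Prrx2 by 1.51 ± 0.12. Thy1, the surface antigen that reprogramming fibroblasts lose, was higher with 3C, at 3467, 3393 and 3809 against 2884, 2538 and 2931 (0.35 ± 0.083, adjusted p = 0.0017). The integrin Itgb1 (-0.87 ± 0.06), fibronectin Fn1 (-0.88 ± 0.078) and S100a4 (-0.97 ± 0.083) fell.

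**Figure D3:**
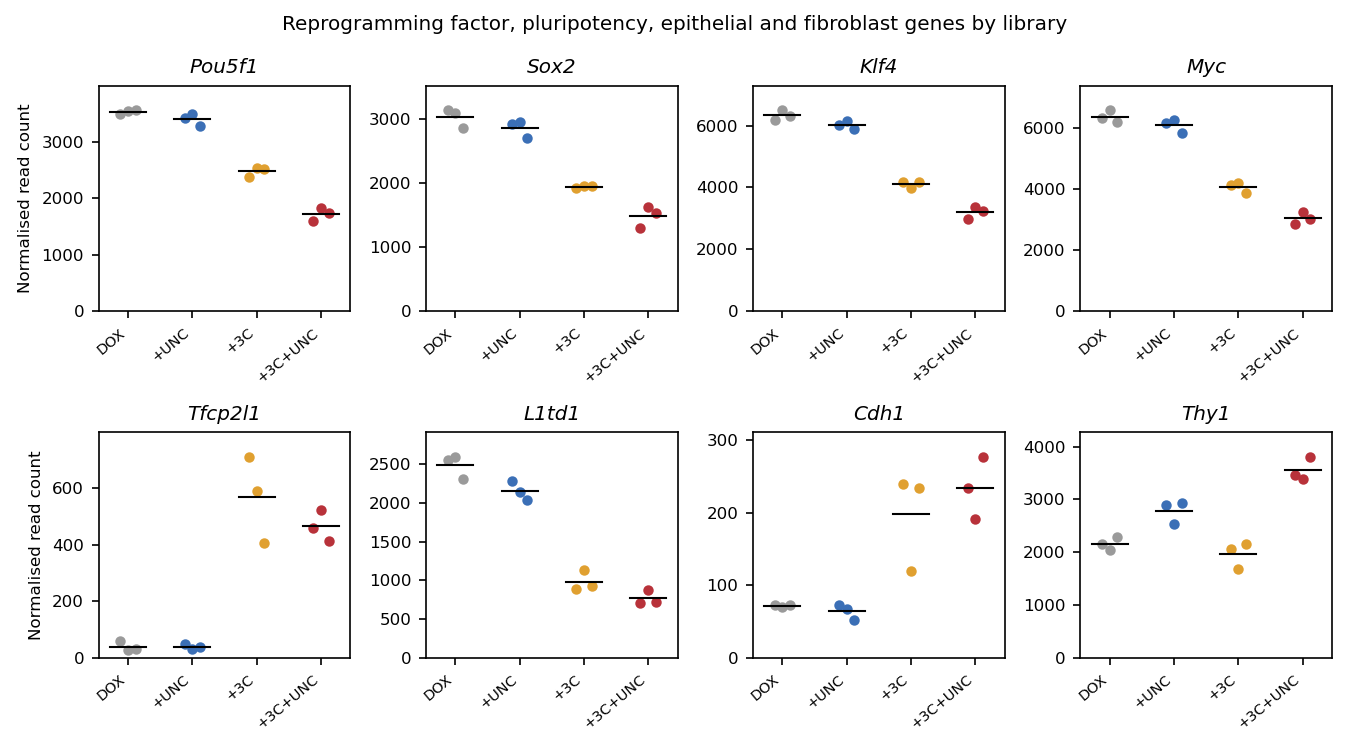
Normalised read count of 8 genes in the 12 libraries, 1 point per library with a bar at the group mean, in the order DOX, DOX + UNC, DOX + 3C and DOX + 3C + UNC. The 4 reprogramming factors are lower in both groups with 3C, Tfcp2l1 and Cdh1 are higher, L1td1 is lower, and Thy1 is highest in the DOX + 3C + UNC libraries.

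Genes of the AHR pathway rose. Of 9 tested members 7 rose and 1 fell (median 1.92). The receptor gene Ahr itself rose from 319, 191 and 329 to 6342, 5085 and 6231 (4.43 ± 0.18, adjusted p = 1.3e-12). Cyp1b1, a P450 enzyme, went from 4748, 3804 and 5409 to 17678, 17016 and 19057 (1.96 ± 0.12, adjusted p = 2.4e-10). Tiparp, the AHR-induced PARP enzyme, rose by 0.39 ± 0.08 and Arnt2 by 0.65 ± 0.17. Aldh3a1, another classical target, fell, from 9539–12274 to 6504–7684 (-0.64 ± 0.095, adjusted p = 2.3e-05). Promoter windows of Cyp1a1 and Ahrr, shown above, held 1 and 3 copies of the AHR core.

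Antioxidant genes under the factor NRF2 rose as a group, 28 of 35 tested against 2 that fell (median 0.78). Nfe2l2, which encodes NRF2, rose from 2361, 2515 and 2348 to 5371, 5293 and 5474 (1.16 ± 0.05, adjusted p = 3.2e-12). Nqo1, a quinone reductase also induced by AHR, rose from 568–722 to 2247–2681 (1.92 ± 0.12), and Hmox1, haem oxygenase, from 456–522 to 1348–1399 (1.48 ± 0.086). Others that rose were Fth1, the ferritin heavy chain (1.54 ± 0.064), the sulfiredoxin gene Srxn1 (1.46 ± 0.076), the exporter gene Abcc1 (0.93 ± 0.047) and G6pdx (0.94 ± 0.048). The cystine transporter gene Slc7a11 rose by 1.93 ± 0.10. The 2 that fell were Gsta4 (-1.29 ± 0.099) and Gpx1 (-0.25 ± 0.065).

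Inflammatory genes were mostly higher. Of 28 tested cytokine, chemokine and adhesion genes 17 rose and 3 fell (median 1.14). Icam1, an adhesion molecule for leukocytes, rose from 41.8, 40.6 and 57.1 to 511, 587 and 518 (3.52 ± 0.16, adjusted p = 5.8e-12). The cytokine genes Il33 (20.5–23.2 to 249–259; 3.46 ± 0.33) and Il6 (1.10–7.14 to 47.3–53.6; 3.58 ± 0.43) rose, and so did Il1rn, the interleukin 1 receptor antagonist (2.35 ± 0.18). Ptges (1.48 ± 0.078), Cxcl5 (1.42 ± 0.09) and Nfkbia, the inhibitor of NF-kB (1.03 ± 0.06), followed. Cxcl16 fell from 178–209 to 18.6–29.8 (-2.97 ± 0.19), with Tnfaip3 (-1.16) and Vcam1 (-0.59). Of 35 interferon response genes 20 were tested, with 10 increases and 1 decrease. Ifitm3 (0.70 ± 0.069), Gbp2 (1.90 ± 0.21) and Bst2 (1.06 ± 0.14) were among the increases. The rest of the list was too low to test and was uneven. Isg15 had 6 reads over the UNC0638 libraries and 6 with 3C, Usp18 14 and 3, and Oas1a 16 and 29.

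Growth genes went in different directions. Of 51 cytosolic ribosomal protein genes 43 rose and 0 fell (median 0.39), and of 32 ribosome biogenesis genes 26 rose and 0 fell (median 0.36), with 0 falling by limma at an unadjusted p under 0.05, by edgeR or by DESeq2. No member of either list rose as much as 2-fold. Polr1a, the large subunit of RNA polymerase I, rose from 2794–2923 to 3716–4457 (0.52 ± 0.057). Ribosomal protein genes have many processed copies in the genome, so how reads were shared among copies is uncertain. Mitosis genes fell, 35 of 40 with 0 up by limma at an unadjusted p under 0.05, by edgeR or by DESeq2 (median -0.36), and so did 25 of 46 replication genes, against 1 that rose. Mki67, the proliferation antigen, fell from 13104–15194 to 6893–8739 (-0.84 ± 0.085), as did the kinesin gene Kif23 (-0.70 ± 0.052) and Rrm1, a subunit of ribonucleotide reductase (-0.92 ± 0.06). Cell cycle inhibitors and p53 targets rose in 15 of 28 cases and fell in 4, with Cdkn1a, which encodes p21, going from 2332–2856 to 3330.5–4116 (0.53 ± 0.085) and Ddit4, an inhibitor of mTORC1, from 1024–1169 to 4154–4612 (2.00 ± 0.069). Feedback genes of FGF and MAPK signalling fell in 16 of 23 cases and rose in 2 (median -0.51). Dusp6, a phosphatase of ERK, fell from 1748–1906 to 460.1–656 (-1.70 ± 0.11), with Etv5 (-1.70 ± 0.12), Spry4 (-1.25 ± 0.12) and Spry1 (-1.71 ± 0.16).

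Markers of other cell types that MEF cultures can hold moved unevenly. The summed level of 21 macrophage and haematopoietic markers was 722.5 to 1200.2 in the UNC0638 libraries and 249.3 to 667.9 with 3C, 1 of them (Lyz1) at 0 in all 6 libraries. Of the 16 tested, 1 rose, 2 fell and 13 were not called. In the fit with the replicate number as a block, 4 rose and 5 fell. Laptm5 fell from 538–604 to 18.6–50.8 (-3.96 ± 0.25). That gene alone made up a large part of the sum with UNC0638 alone, so the lower sum does not describe the list as a whole. The pan-leukocyte marker Ptprc was low in both groups, 4.27–16.1 and 1.16–4.85 (adjusted p = 0.064, 0.014 with the block and 0.022 without UNC0638 replicate 1). Endothelial markers (13, with Cldn5 at 0) summed to 2821 to 3182 and 1534 to 1991, 4 of 7 tested falling and 2 rising, and 18 erythroid and fetal liver markers (Gata1, Hba-x and Hbb-bh1 at 0) summed to 281.7 to 321.3 and 403.7 to 565.7, with 0 of 10 tested called by limma, edgeR or DESeq2 and 0 at an unadjusted p under 0.05, though 4 rose when only the 6 libraries were fitted. Skeletal muscle markers (17, Myod1, Mymk and Tnnc2 at 0) summed to 405.7 to 517.7 and 350.3 to 454.3. Neural and glial markers (24) summed to 13956 to 16089 and 5659 to 7029.6. Of the 15 tested, 8 fell, 2 rose, both by at least 2-fold, and 5 were not called. Keratinocyte markers (11, Ivl and Klk6 at 0) summed to 79.4 to 128.2 and 47.3 to 64.1. What part the makeup of the cultures had in the results was not tested.

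The same 3 compounds without UNC0638 gave a closely related response. In cells given doxycycline alone or with 3C, 7978 genes (49.4%) were called, 3984 (24.7%) higher and 3994 (24.7%) lower. The 2 comparisons share no library. They are not independent, since 1 fit gave both the same SE for each gene and same-numbered libraries varied together across groups. Of the 7656 genes called with UNC0638, 6134 were also called without it. That is 80.1% of the calls with UNC0638, where 49.4% of all tested genes were called without it. It is 76.9% of the calls without UNC0638, where 47.4% of all were called with it. Among these, 6127 had the same direction and 7 the opposite. Across the tested genes, which are not independent replicates, the 2 sets of changes had a Pearson r of 0.893, given as a description. Genes called in both had a median size of change of 0.52 with and 0.54 without UNC0638. Axin2 (5.67 with and 5.43 without), Ahrr (5.42 and 5.41), Ccn2 (-5.20 and -5.34) and Tnfrsf11b (-5.11 and -5.11) show how near the 2 could be.

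A direct test of the difference between the 2 effects called 10 genes (0.062% of those tested), 7 with a more positive effect of 3C when UNC0638 was present and 3 with a more negative one. Without adjustment 1797 genes had p under 0.05. Xdh had the largest difference among the 10. Its levels were 18.4, 22.8 and 19.04 with doxycycline alone, 324, 279 and 302 with 3C, 17.9, 19.7 and 21.4 with UNC0638 and 813, 638 and 688 with both, a difference of 1.26 ± 0.20 (adjusted p = 0.02), which edgeR did not call (adjusted p = 0.075). UNC0638 libraries without 3C stood at the level of doxycycline alone, and those with 3C stood above all other groups. Tgfbr2 was near one level in 3 groups (1495–1691, 1506–1736 and 1660.5–1732) and higher with 3C and UNC0638 together (2338–2641), a difference of 0.56 ± 0.092 (adjusted p = 0.023). Serpinb9, an inhibitor of granzyme B, rose with 3C when UNC0638 was present (0.65 ± 0.11) and fell when it was not (-0.35 ± 0.11), a difference of 1.00 ± 0.16 (adjusted p = 0.02). Plch1, a phospholipase C, did the reverse (-0.40 ± 0.082 and 0.43 ± 0.082), with a difference of -0.83 ± 0.12 (adjusted p = 0.011).

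Pou5f1 was 1 of the 10. The 3C effect was -0.98 ± 0.055 with and -0.51 ± 0.055 without UNC0638, a difference of -0.47 ± 0.078 (adjusted p = 0.023), and its level was lowest with both (1594–1839, against 2384–2539 with 3C alone). Lgals9 (-1.43 and -2.59), Gm2115 (-0.49 and -1.40) and Rcan2 (-0.32 and -1.18) fell less with 3C when UNC0638 was present. The fall of Rcan2 in its presence did not pass without UNC0638 replicate 1 or 2 or 3C replicate 2 (adjusted p 0.061 to 0.070). Slc43a2, an amino acid transporter, rose more (2.04 and 1.34), and Pfkp rose less (0.85 and 1.36). Prlhr showed the widest gap of the genes named here, 6.20 ± 0.44 with and 3.30 ± 0.44 without UNC0638, but the difference of 2.90 ± 0.62 missed the threshold (adjusted p = 0.073), though it passed with the replicate number as a block (adjusted p = 0.02). The number of calls depended on single libraries. It was 0 without doxycycline-only replicate 2 (limma, 1668 genes with an unadjusted p under 0.05), 5 without its replicate 1, 16 and 6 without UNC0638 replicates 1 and 2, 70 and 2 without 3C-only replicates 1 and 2, and 20, 34 and 2 without replicates 1, 2 and 3 of 3C with UNC0638. On all 12 libraries edgeR called 17 genes, among them 9 of the 10 (not Xdh), and DESeq2 155, all 10 among them. When each of the 12 libraries was left out in turn, the difference kept its call in 11 fits for Lgals9 and Plch1, 9 for Pfkp, 8 for Serpinb9 and Xdh, 7 for Gm2115, 6 for Tgfbr2 and 5 for Pou5f1, Rcan2 and Slc43a2. Adjusted p over these fits reached at most 0.052 for Lgals9 and Plch1, 0.083 for Pou5f1 and 0.101 for Rcan2.

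**Figure D4:**
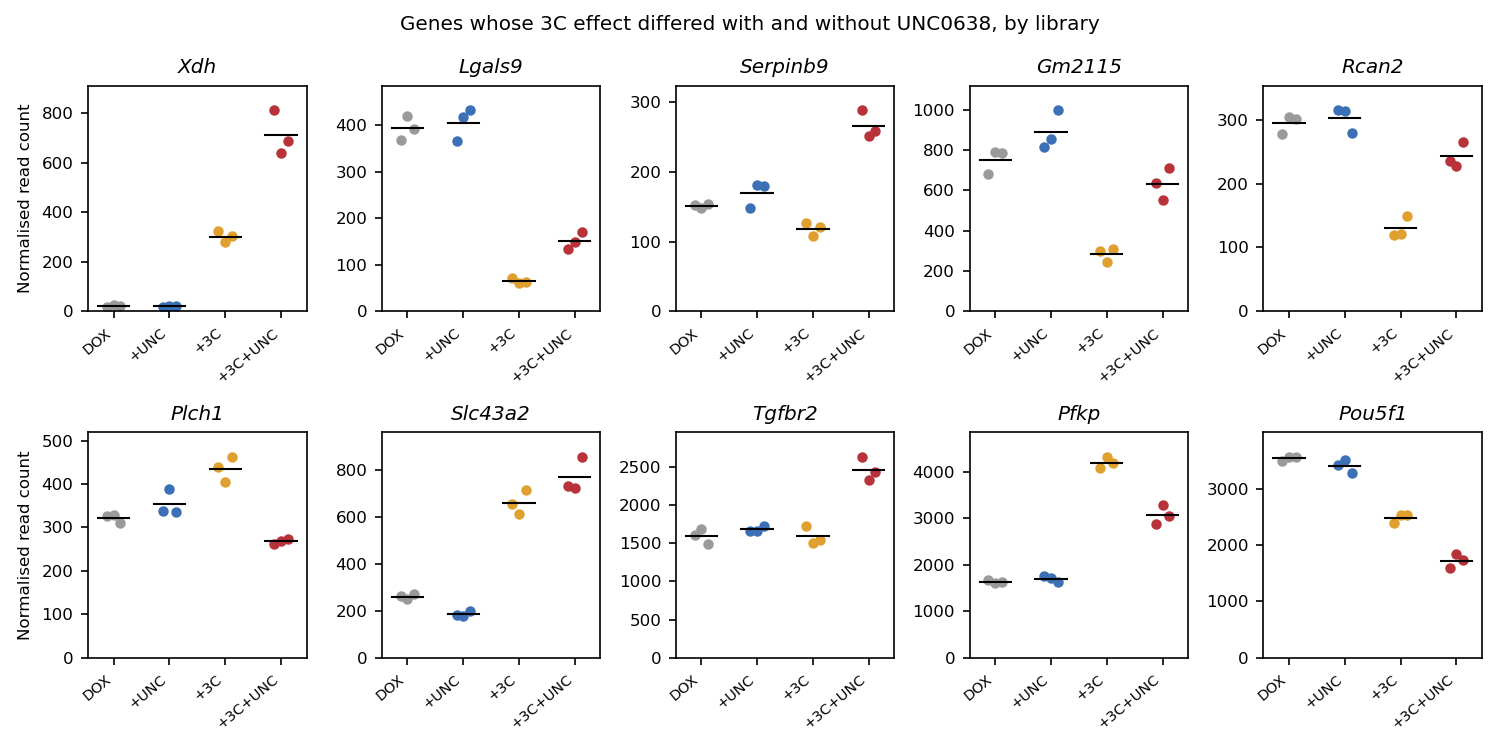
Normalised read count of the 10 genes whose 3C effect differed with and without UNC0638, 1 point per library with a bar at the group mean, for DOX, DOX + UNC, DOX + 3C and DOX + 3C + UNC. Xdh and Tgfbr2 are highest, and Pou5f1 and Plch1 lowest, in the DOX + 3C + UNC libraries.

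Libraries with the same replicate number varied together, and a fit that took the number as a block called 413 genes (2.56%) for this difference, 309 (1.91%) positive and 104 (0.644%) negative, all 10 of the above among them. Mesenchymal genes were frequent on the positive side. Of 30 collagen chains 10 were called and all were positive, among them Col1a1 (-0.51 with and -1.11 without UNC0638; blocked adjusted p = 0.0016), Col1a2 (-1.37 and -1.79; 0.018) and Col6a3 (-1.34 and -1.76; 0.015). Not all of the called chains fell, since Col5a3 (0.75 and 0.099) and Col18a1 (0.82 and 0.29) had positive effects in both settings. Col1a1, Col1a2 and Col6a3 fell less with 3C when UNC0638 was present. So did Acta2 (-2.10 and -2.75; blocked adjusted p = 1.8e-05) and Myl9 (-2.25 and -2.87; 9.5e-05), 2 of 8 contractile genes called, all positive. Of 35 TGF-b response genes 14 were positive and 1 negative. Lox (-4.27 and -4.94) and Pmepa1 (-2.46 and -3.26) fell less, and Tgfbi (0.52 and -0.07; blocked adjusted p = 2.0e-04) and Snai1 (1.20 and 0.35) had a more positive effect. Of the mesenchymal adhesion and EMT genes 9 of 29 were positive, Thy1 among them (0.35 and -0.14; blocked adjusted p = 6.7e-04). On the negative side were 3 of the 4 reprogramming factors, Pou5f1, Klf4 (-0.91 and -0.62; blocked adjusted p = 0.023) and Myc (-1.01 and -0.65; 0.0043), and 4 of 22 epithelial genes. Wnt targets had 2 of 19, Nkd2 (1.58 and 0.71) and Apcdd1 (0.55 and -0.04), both positive, and AHR genes 3 of 9, among them Ahr (4.43 and 3.91) and Cyp1b1 (1.96 and 1.56).

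**Figure D5:**
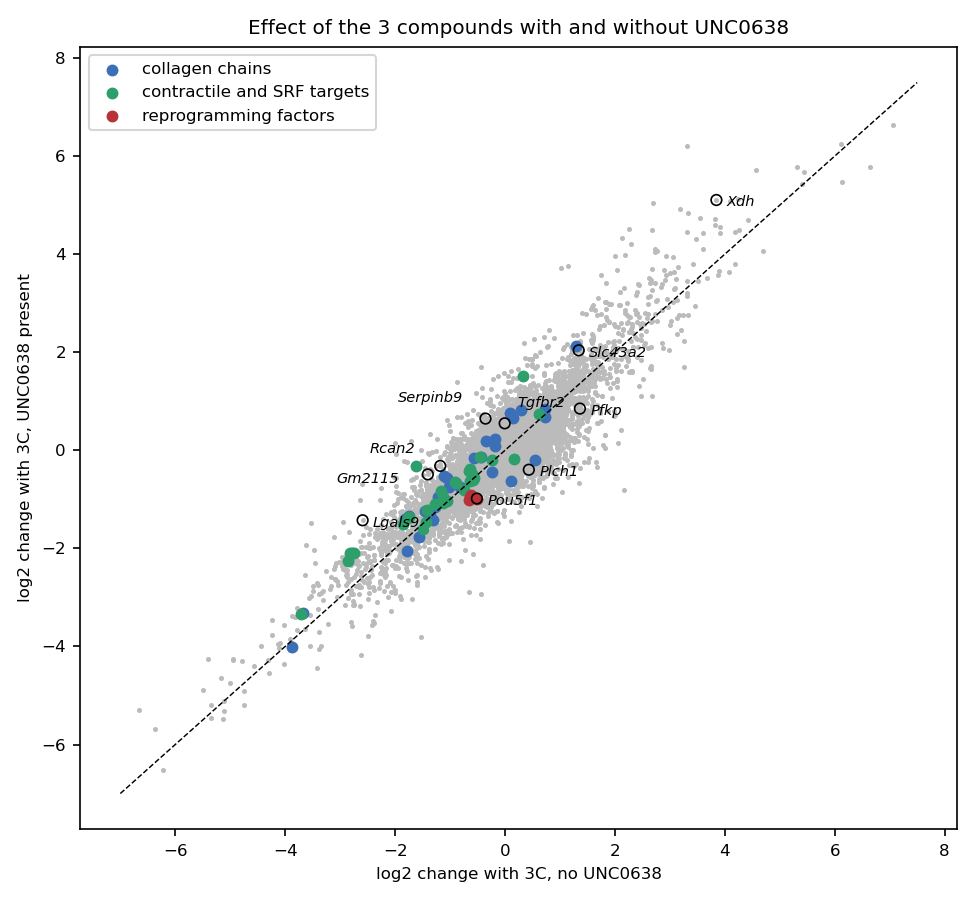
Change with 3C (log2 difference) in the absence of UNC0638 on the horizontal axis against the change in its presence on the vertical axis, 1 grey point per tested gene, with collagen chains, contractile genes and reprogramming factors in colour, the 10 genes with a called difference circled and the diagonal dashed. The cloud follows the diagonal (r = 0.893), many collagen and contractile genes lie above it, and the 4 reprogramming factors lie below it.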

How the data were processed

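RNA-seq libraries of doxycycline-treated MEFs were made from ribosomal RNA-depleted total RNA with a stranded kit, per the labels' protocols. The submitters' processing notes name TopHat2 2.1.0, SAMtools 1.8, HTSeq 0.5.4p3 and DESeq, with the mm10 build. The deposited values are a normalised signal, reads per gene divided by the authors' single factor per library. Dividing each column by its smallest nonzero value recovered whole reads for 100% of values (within 0.01 of a read). Pairwise chi-square comparisons of replicates found differences above sampling noise in every group, so no library was a copy. The table holds 2 columns that match no listed sample, and these were not used. ChIP and iPSC files were not analysed here.

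A gene was tested where 3 or more of the 12 libraries had values of 10 or above (16138 of 54109; 54042 have a symbol) with limma 3.58.1 in R 4.3.3 on log2(value + 1), which understates changes of low genes. One fit of group means over the 12 libraries with a mean-variance trend gave the 3C effect with UNC0638, without it, and their difference, with Benjamini-Hochberg adjustment over all tested genes. The method was tested on simulated data. Alternatives were a pseudocount of 5, no filter, TMM scaling, edgeR 4.0.16 quasi-likelihood and DESeq2 1.42.0 on recovered reads, the replicate block, the 6 libraries alone, and leaving out each replicate.

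The labels give each library a replicate number but do not say what same-numbered libraries share. Pairing by number was inferred from the data. Deviations from group means correlated at 0.288 to 0.393 for same-numbered libraries of the 2 groups compared (10807 genes). For others the values were -0.303 to -0.0672. Deviations cancel within each group, so the negative values of the other pairs are partly built in. Over the 4 groups all 18 same-numbered pairs correlated at 0.126 to 0.436.

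Named genes were the 15 largest called changes each way (mean of at least 50 in the higher group, groups not overlapping), from every list the 5 tested genes of lowest p, up to 10 genes with a called difference, and fixed checks (such as Pou5f1, Axin2 and Thy1). Further list members were named by their values. Some genes that the rule names are not reported here. Members and lists were chosen with earlier results of these data known. Symbols, positions and promoters came from RefSeq tables (GRCm38.p6). Levels are not per length and are not compared between genes. Counting floors use 3 reads over a group's 3 libraries and cover counting error only.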

Additional observations from a re-analysis of the deposited data

Results flagged for a closer look

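For 10 genes the effect of 3C differed with and without UNC0638 by the test of the difference itself (limma without the replicate block, adjusted p under 0.05). The fit with the replicate number as a block called 413 genes, these 10 among them. The difference, as the log2 effect of 3C with UNC0638 minus that without, was 1.26 for Xdh, 1.16 for Lgals9, 1 for Serpinb9, 0.914 for Gm2115, 0.86 for Rcan2, 0.698 for Slc43a2 and 0.556 for Tgfbr2. It was -0.83 for Plch1, -0.512 for Pfkp and -0.472 for Pou5f1. In Serpinb9 and Plch1 the 2 effects had opposite signs, and each was called. Groups of 3 libraries are too small for a test that marks a single library as an outlier. Leaving out each library in turn gave 0 to 70 calls of the difference.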

How the results depend on the processing

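The counts of genes called for the 3C effect stayed within 1.5 times under every alternative run. With UNC0638 they were 7067 (DESeq2) to 8307 (replicate block) against 7656, and 6838 to 7372 when each replicate was left out. Without UNC0638 they were 7348 to 8621 against 7978, and 7201 to 7364 with each replicate left out. The count of genes whose 3C effects differed was not stable. It was 10, but 29 with a pseudocount of 5, 19 with TMM scaling, 17 by edgeR, 155 by DESeq2 and 413 with the replicate block, and 0 to 70 when each replicate was left out. The cause was not tested. Without the low-value filter it was 10.

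For the 3C effect with UNC0638, 215 named genes had 2795 values under the alternatives. Of these, 2777 kept their side of the threshold, 13 lost the call and 5 gained it. Signs were compared only where a gene was called in the main fit or in the alternative, and 0 of those changed sign. The 7 genes concerned are Col3a1, Ehmt1, Epcam, Igfbp6, Lef1, Ptprc and Rcan2, and their values stand with the results. The replicate block changed the call of this effect for Lef1 and Ptprc and for no other named gene. For the difference between the effects with and without UNC0638, the block added calls for 45 named genes and removed 0. The 10 genes called for the difference kept their call in 134 of 180 values under the alternatives and lost it in 46, with 0 changes of sign. TMM scaling moved the median change of all genes from 0.0123 to 0.00318. With 12649516 to 18073259 reads per library, genes such as Nanog and Sp5 were too low to test.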

Other observations

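Imprinted genes, which are expressed from 1 parental allele, fell in 14 of 28 tested cases and rose in 4 (median -0.39). Over all tested genes 23.5% fell and 23.9% rose, which is the background for each list in this section. The non-coding RNA H19 fell from 17526, 12018 and 10901 with UNC0638 alone to 961, 1042 and 766 with 3C (-3.85 ± 0.23 log2, adjusted p = 2.2e-10). Grb10, an adaptor that restrains insulin signalling, fell from 52505–54922 to 26692–27527, and Ndn (-1.27 ± 0.064) and Zdbf2 (-1.95 ± 0.14) fell as well. Peg10, derived from a retrotransposon, rose from 127–173 to 927–1289 (2.78 ± 0.15, adjusted p = 4.2e-11). In a list of 26 tested genes of the IGF, PDGF and neurotrophin axis 7 rose and 11 fell. Of the IGF binding proteins on it, Igfbp3 fell from 16265, 14605 and 15106 to 966, 1033 and 1032 (-3.92 ± 0.084, adjusted p = 7.2e-16) and Igfbp7 to a lesser extent (-1.59 ± 0.075), and Igfbp4 (0.82 ± 0.17) and Igfbp6 (0.44 ± 0.15) rose. The rise of Igfbp6 did not pass without UNC0638 replicate 2 (adjusted p = 0.1) or 3C replicate 1 (0.12).

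Adipocyte genes rose in 11 of 18 tested cases and fell in 3 (median 0.62). Of the 24 on the list, Adipoq, Cidec, Plin1, Lep, Cfd and Retn were too low to test. Adipoq had 0 reads over the UNC0638 libraries and 2 with 3C, and Retn, the highest of these, had 8 and 12. Pparg, the master factor of fat cells, rose from 55.9–78.5 to 189–269.6 (1.71 ± 0.19, adjusted p = 1.0e-06), Cebpb from 119–128 to 333–478 (1.71 ± 0.12), and Dpp4, which marks adipose progenitors, from 14.5–21.9 to 490.4–550.3 (4.72 ± 0.26). Bone and cartilage genes were mixed, 5 up and 6 down of 18. Sost, a Wnt antagonist of bone, fell from 182–211 to 18.6–26.5 (-3.01 ± 0.20), and Acan, cartilage aggrecan, rose from 80.3–102 to 329.7–354 (1.86 ± 0.14). Lysosomal genes rose in 16 of 30 cases and fell in 2, with Gpnmb going from 40.1–41.1 to 273–288 (2.77 ± 0.16) and Ctsb, which encodes cathepsin B, from 3826–4062 to 7559–7655 (0.94 ± 0.053). Chaperones and enzymes of the unfolded protein response fell in 14 of 21 cases and rose in 2, with Pdia6 (-0.61 ± 0.046) and Hsp90b1 (-0.60 ± 0.057) among those that fell. Of 30 tested Hox genes, which record position along the body, 2 rose and 1 fell, or 4 and 2 with the replicate block.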
